A study of Homo sapiens with 12 samples.

Results

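TDO2 and the tryptophan-kynurenine pathway were examined in 12 RNA-seq libraries of HGC-27, a human gastric cancer cell line. The 10 members are TDO2, IDO1, AFMID, KMO, KYNU, KYAT1, KYAT3, HAAO, QPRT and AHR, found by Ensembl identifier among the 20345 rows of the expression table. TDO2 headed this set and was chosen by its values in these libraries, so its levels and differences are given as a description with no test. To examine how specific the peptide GLUP is, the study sequenced 4 groups of 3 libraries, namely WT untreated (replicates 1, 2 and 3), WT with GLUP (14, 15 and 16), TEAD4KO untreated (1, 2 and 3) and TEAD4KO with GLUP (14, 15 and 16). The peptide is cyclic and designed to bind TEAD4, the DNA-binding partner of the co-activators YAP and TAZ in the Hippo pathway. WT samples carry no genotype label, the dose and exposure time are not in the labels, and how the knockout was made, or whether it is 1 clone, is not given in the sources used here. All groups share the cell line and culture medium.

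Tryptophan enters the kynurenine pathway through TDO2, IDO1 or IDO2, dioxygenases that open its ring. TDO2 is best known from hepatocytes, whereas IDO1 is induced by interferon in many cells. The product is turned into kynurenine by AFMID, and kynurenine is either oxidised by KMO and passed through KYNU, HAAO and QPRT towards NAD, or transaminated by KYAT1 and KYAT3 to kynurenic acid. Both kynurenine and kynurenic acid can bind AHR, a transcription factor that switches on CYP1A1 and CYP1B1, and in tumours TDO2 is studied as a source of such ligands.

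Values were deposited in FPKM (fragments scaled to transcript length and to the mapped total of the library), so levels of different genes can be set side by side per length. Differences were computed on the log2(FPKM + 1) scale, which understates changes of low genes, and a gene passed at a Benjamini-Hochberg adjusted p under 0.05 (limma) over the 11225 rows whose mean reached 1 FPKM. Sequencing depth is unknown. The study's methods call its RNA samples biological replicates, but neither they nor the labels say which libraries came from separate cultures, so p-values measure only the spread between these libraries.

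The labels were checked against the libraries. TEAD4 was at 24.4 to 25.8 FPKM in untreated WT libraries, 22.9 to 23.8 FPKM in WT with GLUP, 27.2 to 30.1 FPKM in untreated TEAD4KO and 26.0 to 29.4 FPKM in TEAD4KO with GLUP. The transcript was thus not lower under the knockout label. It was higher there by 0.23 on the log2 scale with GLUP and by 0.20 over both treatments. Both differences passed (limma), as did 5.84% and 20.0% of all rows, but they depended on the processing, as given below. The untreated difference of 0.17 did not pass. Whether the TEAD4 protein was lost cannot be told from these values. Every direction below between the libraries labelled TEAD4KO and WT rests on that label. On the first principal component, with 39.7% of the variance, WT libraries lay between -16.2 and -3.71, and most libraries labelled TEAD4KO lay at 9.91 and above. Untreated replicate 1 (-0.962) and GLUP replicate 16 (-5.26) of that label stood apart from the other 4. The genotype difference also trended with transcript length (Spearman's rho = -0.533 across 11077 rows) and GC content (0.259). Of the markers of epithelial state, VIM was at 1238 to 1704 FPKM, KRT8 at 3.78 to 9.13 FPKM and CDH1 at 2.04 to 3.68 FPKM, while EPCAM, KRT18 and KRT19 stayed at 0.290 FPKM or less. Between genotypes over both treatments, KRT8 (0.31 ± 0.10, SE, limma adjusted p = 0.0451) and VIM (0.23 ± 0.06, limma adjusted p = 0.0193) were higher in libraries labelled TEAD4KO. With GLUP over both genotypes, CDH1 (-0.32 ± 0.08, limma adjusted p = 0.203) and KRT8 (-0.35 ± 0.10, limma adjusted p = 0.318) did not pass. CDH1 was lower in every WT GLUP library than in untreated WT, but its groups overlapped under the TEAD4KO label. KRT8 was lower in every GLUP library under that label, but its groups overlapped in WT. How many of all rows separate so was not counted, and nothing is read from it. The part of these markers in the results was not tested. The 5 hepatocyte markers summed to at most 0.153 FPKM in any library. Of the leukocyte markers, PTPRC was at 0.110 to 0.276 FPKM and CD3E was listed at 0 in every library. CD68 was at 0.0618 to 0.433 FPKM and CD14 at 0.102 to 0.703 FPKM, both highest in TEAD4KO untreated replicate 1. The fibroblast markers COL1A1 (155 to 304 FPKM) and DCN (55.1 to 77.6 FPKM) were high in every library. Summed, they ranged from 307 to 321 FPKM in untreated WT, 309 to 340 FPKM in WT with GLUP, 264 to 362 FPKM in untreated TEAD4KO and 224 to 312 FPKM in TEAD4KO with GLUP, and their part in the results was not tested. No batch is named in the labels.

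Promoters, taken as the 250 bases before the start of the canonical transcript on GRCh37, were searched for the core letters of the TEAD and AHR motifs, since GLUP was made to bind TEAD4 and kynurenine is a ligand of AHR. The entry enzyme, the receptor and a target gene of the receptor are printed 5′ to 3′ on the gene's strand, and capitals mark matches to GGAATG (TEAD) or GCGTG (AHR) on either strand.
TDO2 (chr4:156824598-156824847, plus strand): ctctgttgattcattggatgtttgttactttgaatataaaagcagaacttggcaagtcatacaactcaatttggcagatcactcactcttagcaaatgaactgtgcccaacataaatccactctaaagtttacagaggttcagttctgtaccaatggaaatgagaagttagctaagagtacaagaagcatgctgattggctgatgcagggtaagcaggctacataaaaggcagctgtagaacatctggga
AHR (chr7:17338026-17338275, plus strand): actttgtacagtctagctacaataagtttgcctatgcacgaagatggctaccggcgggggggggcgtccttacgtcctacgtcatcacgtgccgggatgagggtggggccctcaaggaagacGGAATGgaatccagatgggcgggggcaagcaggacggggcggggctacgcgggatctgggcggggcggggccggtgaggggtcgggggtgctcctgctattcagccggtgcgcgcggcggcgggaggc
CYP1A1 (chr15:75017870-75018119, minus strand): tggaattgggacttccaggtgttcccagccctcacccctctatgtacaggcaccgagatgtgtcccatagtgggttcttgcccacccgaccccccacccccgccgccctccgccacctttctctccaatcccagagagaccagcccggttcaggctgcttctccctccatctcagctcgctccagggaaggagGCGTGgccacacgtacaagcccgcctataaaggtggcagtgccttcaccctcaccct
TDO2 held no match to either motif or to the STAT palindrome TTCNNNGAA in this window. AHR held 1 TEAD match that begins 128 bases before the start, and CYP1A1 held 1 AHR match that begins 57 bases before it. Of 19631 promoters of the same length, 9.77% held the TEAD letters, 40.4% the AHR letters and 5.63% the STAT letters. Among the other members, AFMID held 1 AHR match and KYNU 1 STAT palindrome. KMO, HAAO, QPRT, KYAT1 and KYAT3 held none, and IDO1 was not searched. The matches do not overlap one another, and a match is a description of letters, not a binding site.

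TDO2 (ENSG00000151790, chromosome 4, 156775890 to 156841558, plus strand) was the expressed entry enzyme of HGC-27, and its level was higher in every GLUP library than in every untreated one. In untreated WT libraries it was at 5.15, 5.46 and 5.09 FPKM. With GLUP the WT libraries stood at 8.17, 7.84 and 9.54 FPKM. The WT groups did not overlap, and the untreated libraries lay close together. The untreated TEAD4KO libraries were at 5.39, 5.33 and 7.14 FPKM. With GLUP these libraries stood at 13.6, 9.81 and 8.50 FPKM. Again the groups did not overlap, replicate 3 was the high untreated library, and replicate 14 was the high GLUP library. In bulk RNA, a higher level per cell and a larger share of cells with the transcript cannot be told apart.

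Ordered by their means, the groups ran from untreated WT (5.23 ± 0.199 FPKM, SD, n = 3) through untreated TEAD4KO (5.96 ± 1.03) and WT with GLUP (8.52 ± 0.904) to TEAD4KO with GLUP (10.6 ± 2.66). The untreated groups overlapped each other, as did the GLUP groups. Between them lay a gap, from 7.14 FPKM in the highest untreated library to 7.84 FPKM in the lowest GLUP library. Across all rows tested, 46 (0.410%) had all 6 GLUP libraries above all 6 untreated ones. TDO2 is one of them, and as it was chosen by its values nothing is read from that share.

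The GLUP difference of TDO2 was 0.61 ± 0.14 on the log2 scale (SE) in WT, or 1.52-fold, and 0.73 ± 0.14, or 1.66-fold, in libraries labelled TEAD4KO. Averaged over both genotypes it was 0.67 ± 0.10, or 1.59-fold. From the highest difference down, TDO2 ranked 8 in WT, 17 in TEAD4KO and 5 over both genotypes among the 11225 rows. As TDO2 was chosen by its values, nothing is read from these ranks. The GLUP difference in TEAD4KO exceeded that in WT by 0.12 ± 0.20, less than its error, and this value turned to -0.054 without TEAD4KO GLUP replicate 14. Against WT, libraries labelled TEAD4KO differed by 0.15 ± 0.14 untreated and 0.27 ± 0.14 with GLUP, with overlapping groups in both cases. These values fell to 0.030 without TEAD4KO untreated replicate 3 and to 0.095 without TEAD4KO GLUP replicate 14, and to 0.076 and 0.17 after correction for length and GC content. All 4 of these comparisons share groups, so they are not independent of each other. A neighbouring row, ASIC5, overlaps the TDO2 gene on the opposite strand but shares no exon base with its canonical transcript, and was at most 0.013 FPKM.

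**Figure D1:**
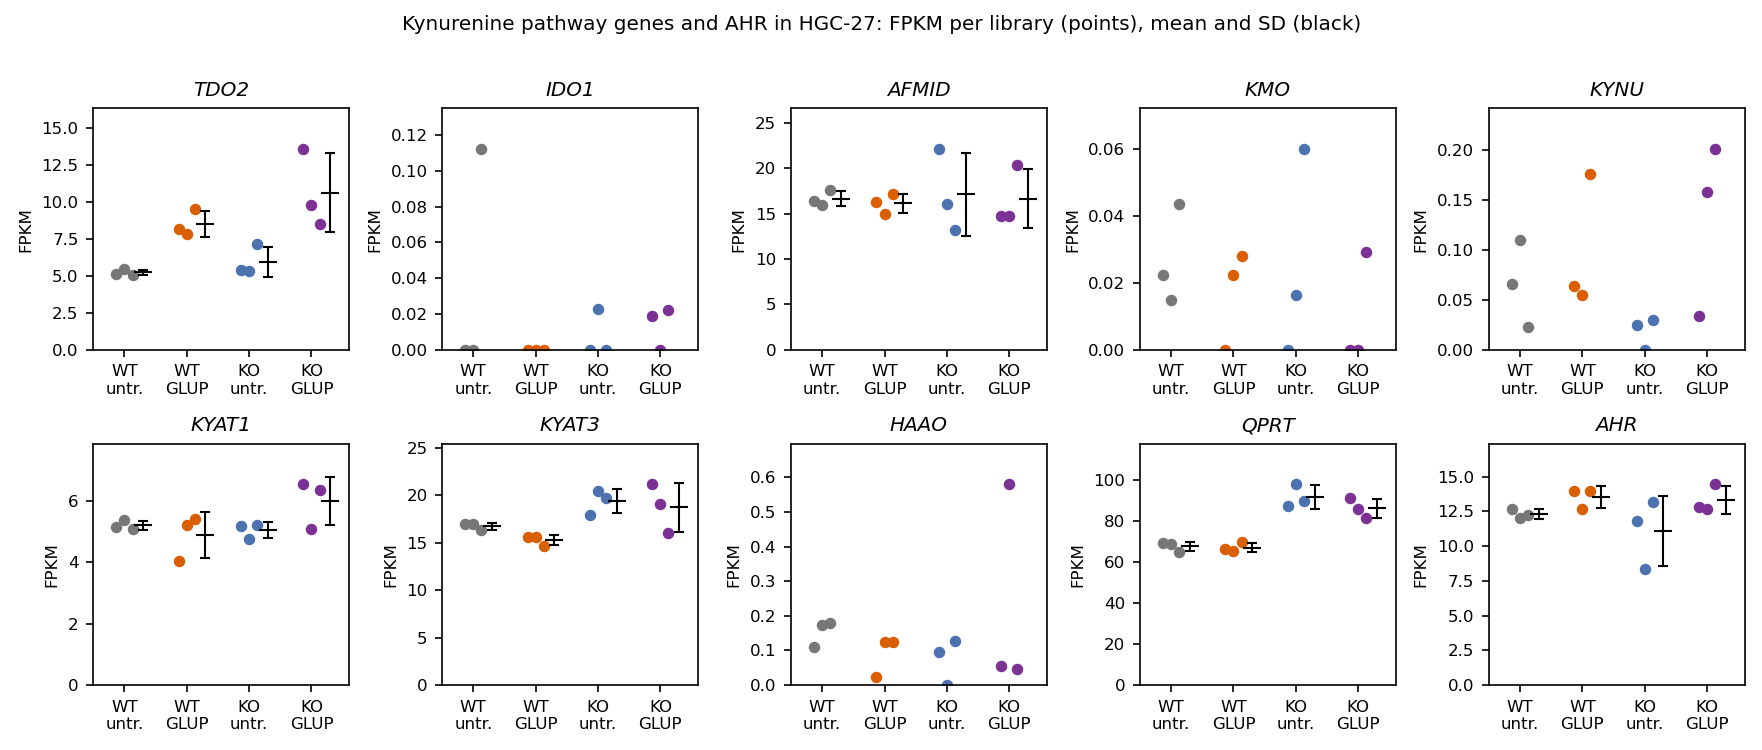
FPKM (vertical axes, each from 0) of the 10 members in each of the 12 libraries, by group (WT or labelled TEAD4KO, abbreviated KO, untreated or with GLUP), with points for libraries and black bars for mean and SD, left out for the 4 members below 1 FPKM. TDO2 was at 7.84 FPKM or more in all 6 GLUP libraries and at 7.14 FPKM or less in all 6 untreated ones, and QPRT was at 81.5 FPKM or more in all 6 libraries labelled TEAD4KO and at 69.6 FPKM or less in WT.

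IDO1 (ENSG00000131203, chromosome 8, 39759794 to 39786309), the interferon-induced entry enzyme, was listed at 0 in 8 of the 12 libraries. Its highest value was 0.112 FPKM, in untreated WT replicate 3, and GLUP libraries reached 0.022 FPKM at most. IDO2, the third entry enzyme, did not exceed 0.014 FPKM. TDO2 therefore stood above both other dioxygenases in each library, by its lowest value of 5.09 FPKM against their highest.

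AFMID, the formamidase that releases kynurenine (ENSG00000183077, chromosome 17, 76183439 to 76203783), was expressed above TDO2, with a mean of 16.7 FPKM over all libraries against 7.59. WT libraries were at 16.4, 15.97 and 17.7 FPKM without GLUP and at 16.3, 15.03 and 17.1 FPKM with GLUP. Libraries labelled TEAD4KO ranged more widely, at 22.2, 16.1 and 13.2 FPKM without GLUP and at 14.7, 14.8 and 20.4 FPKM with GLUP. The high libraries there were untreated replicate 1 and GLUP replicate 16, the pair that stood apart on the first principal component. All groups overlapped, and GLUP over both genotypes gave -0.037 ± 0.108 (SE, limma adjusted p = 0.979).

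The oxidative branch towards quinolinate was near absent before its last step. KMO, the monooxygenase that opens this branch, did not exceed 0.060 FPKM and was listed at 0 in 4 libraries. OPN3, which overlaps KMO on the opposite strand and shares 1568 exon bases with it, was at 1.76 to 4.36 FPKM. Whether counting used strand is not stated, so reads of KMO and OPN3 may not be told apart. KYNU, the kynureninase, stayed at 0.201 FPKM or less. HAAO, which makes the precursor of quinolinate, was at 0.179 FPKM or less except in TEAD4KO GLUP replicate 15, at 0.581 FPKM. The other 2 libraries of that group were at 0.0550 and 0.0455 FPKM. None of IDO1, KMO, KYNU and HAAO reached 1 FPKM in any library, so they were not tested and 5 of the 9 members other than TDO2 were.

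QPRT, which turns quinolinate into nicotinate mononucleotide on the way to NAD, was the most abundant member, at a mean of 78.1 FPKM, and it was higher in libraries labelled TEAD4KO. This gene (ENSG00000103485) lies on chromosome 16 from 29674600 to 29710020 on the plus strand. In WT it was at 69.0, 68.6 and 65.0 FPKM without GLUP and at 66.3, 65.2 and 69.6 FPKM with GLUP. In those labelled TEAD4KO the level was 87.2, 98.1 and 89.8 FPKM without GLUP and 91.0, 86.0 and 81.5 FPKM with GLUP. Every library labelled TEAD4KO was above every WT library, whereas the untreated and GLUP groups overlapped within each genotype. How many of all rows separate the genotypes in this way was not counted, so nothing is read from the separation, here or below.

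QPRT rose by 0.43 ± 0.06 on the log2 scale, or 1.35-fold, in untreated libraries labelled TEAD4KO (SE, n = 3 per group, limma adjusted p = 0.00316). With GLUP the difference was 0.36 ± 0.06, or 1.28-fold (limma adjusted p = 0.00523). Over both treatments it was 0.39 ± 0.04, or 1.31-fold (limma adjusted p = 0.000106), and it passed under each of the 23 alternatives run without a fold limit, with p from 1.74e-05 to 0.00130. That includes the correction of each library for its length and GC trend. No member or other pathway gene that passed between genotypes reached 2-fold, so the counts of alternatives given for single genes leave out the 2-fold limit. GLUP over both genotypes gave -0.050 ± 0.044 for QPRT (limma adjusted p = 0.890). SPN overlaps the QPRT gene on the same strand, shares no exon base with its canonical transcript and did not exceed 0.093 FPKM.

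Of the enzymes that transaminate kynurenine to kynurenic acid, both that are among the members, KYAT1 and KYAT3, were expressed. KYAT3 (ENSG00000137944, chromosome 1, 89401456 to 89458636, minus strand) was the higher of the pair. It was at 16.9, 16.9 and 16.3 FPKM in untreated WT and at 15.6, 15.6 and 14.7 FPKM with GLUP. The TEAD4KO label went with 17.9, 20.4 and 19.7 FPKM without GLUP and with 21.2, 19.0 and 16.02 FPKM with GLUP. Within each treatment the labelled TEAD4KO libraries all lay above WT, a pattern that was not counted over all rows. KYAT3 rose by 0.23 ± 0.06 over both treatments, or 1.18-fold (limma adjusted p = 0.0179), and kept passing in all 23 alternatives, at an adjusted p of 0.0496 or less. Taken apart, 0.20 ± 0.09 untreated (limma adjusted p = 0.206) and 0.27 ± 0.09 with GLUP (limma adjusted p = 0.0829) did not pass. Without TEAD4KO GLUP replicate 16, the lowest of its group, the GLUP comparison gave 0.37 and passed. RBMXL1, at 4.58 to 5.82 FPKM, overlaps KYAT3 on the same strand and shares 145 exon bases with it, so the KYAT3 value is uncertain to that extent.

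KYAT1 (ENSG00000171097, chromosome 9, 131595221 to 131644773, minus strand), the other kynurenine aminotransferase among the members, was close to TDO2 in level. WT libraries were at 5.14, 5.36 and 5.08 FPKM without GLUP and at 4.04, 5.22 and 5.40 FPKM with GLUP. Libraries labelled TEAD4KO were at 5.17, 4.76 and 5.21 FPKM without GLUP and at 6.55, 5.08 and 6.35 FPKM with GLUP. Replicates 14 and 16 of the last group were high, and replicate 15 lay among the untreated libraries. None of the KYAT1 comparisons passed. Its difference between genotypes was 0.25 ± 0.11 with GLUP (SE, limma adjusted p = 0.178) and 0.11 ± 0.08 over both treatments (limma adjusted p = 0.334), and these values fell to 0.14 and 0.054 without WT GLUP replicate 14, the lowest library. Over both treatments the length and GC correction gave 0.058. Of the aminotransferases outside the members that accept kynurenine, AADAT was at 8.95 to 12.3 FPKM and mitochondrial GOT2 at 56.0 to 62.8 FPKM. Neither passed in any comparison.

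AHR, the receptor (ENSG00000106546, chromosome 7, 16955983 to 17385776, plus strand), was expressed in every library. In WT it was at 12.7, 11.99 and 12.2 FPKM without GLUP and at 13.98, 12.6 and 13.97 FPKM with GLUP. Libraries labelled TEAD4KO were at 11.8, 8.32 and 13.1 FPKM without GLUP and at 12.8, 12.6 and 14.5 FPKM with GLUP. Group means were higher with GLUP in both genotypes, but the groups overlapped in each, and untreated TEAD4KO replicate 2 was the low library. GLUP over both genotypes gave 0.20 ± 0.09 (SE, limma adjusted p = 0.672; unadjusted p = 0.0404), and AHR did not pass under any of the 21 alternatives. Without untreated TEAD4KO replicate 2 the difference was 0.11.

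**Figure D2:**
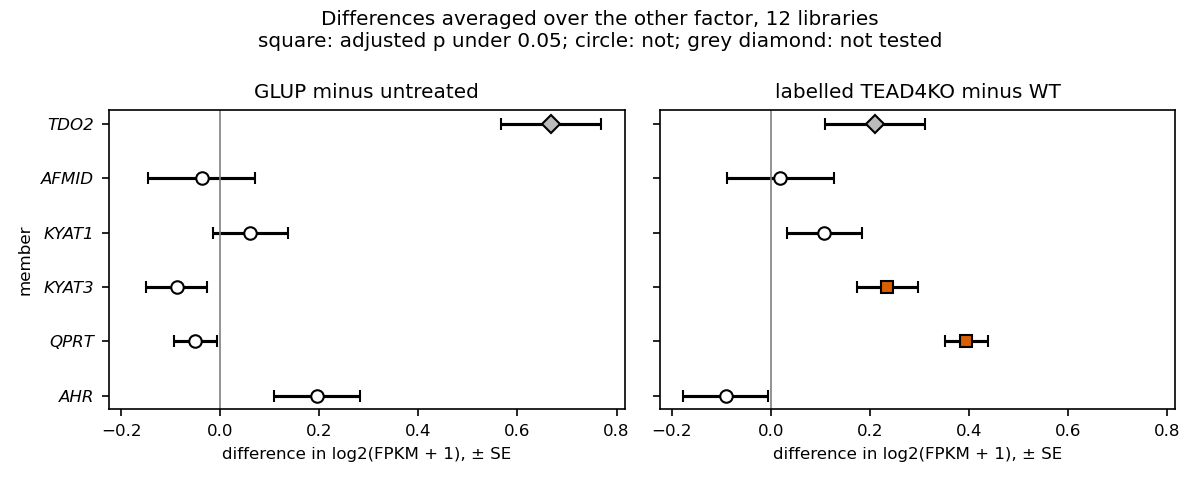
Difference in log2(FPKM + 1) with its SE (horizontal axes) for the 6 members above the 1 FPKM filter, for GLUP minus untreated averaged over genotypes (left) and labelled TEAD4KO minus WT averaged over treatments (right). QPRT at 0.39 and KYAT3 at 0.23 on the right passed (squares), no tested member passed on the left (circles), and TDO2, at 0.67 on the left, is a grey diamond because it was not tested.

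In the GLUP comparisons, 0 of the 5 tested members passed in WT, in TEAD4KO, over both genotypes or for the interaction (limma), with 0, 1, 1 and 0 at an unadjusted p under 0.05. Of all rows, 0.00891% passed in WT, 0.0445% in TEAD4KO, 0.258% over both genotypes and 0.00891% for the interaction. The median difference of the 5 members with GLUP over both genotypes was -0.037, beside -0.0040 over all rows. Between genotypes, 1 of the 5 (QPRT) passed untreated, 1 (QPRT) with GLUP and 2 (QPRT and KYAT3) over both treatments, all higher in libraries labelled TEAD4KO. The shares of all rows were 5.42%, 5.84% and 20.0%. The median of the 5 over both treatments was 0.11, beside 0.0080 over all rows.

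**Figure D3:**
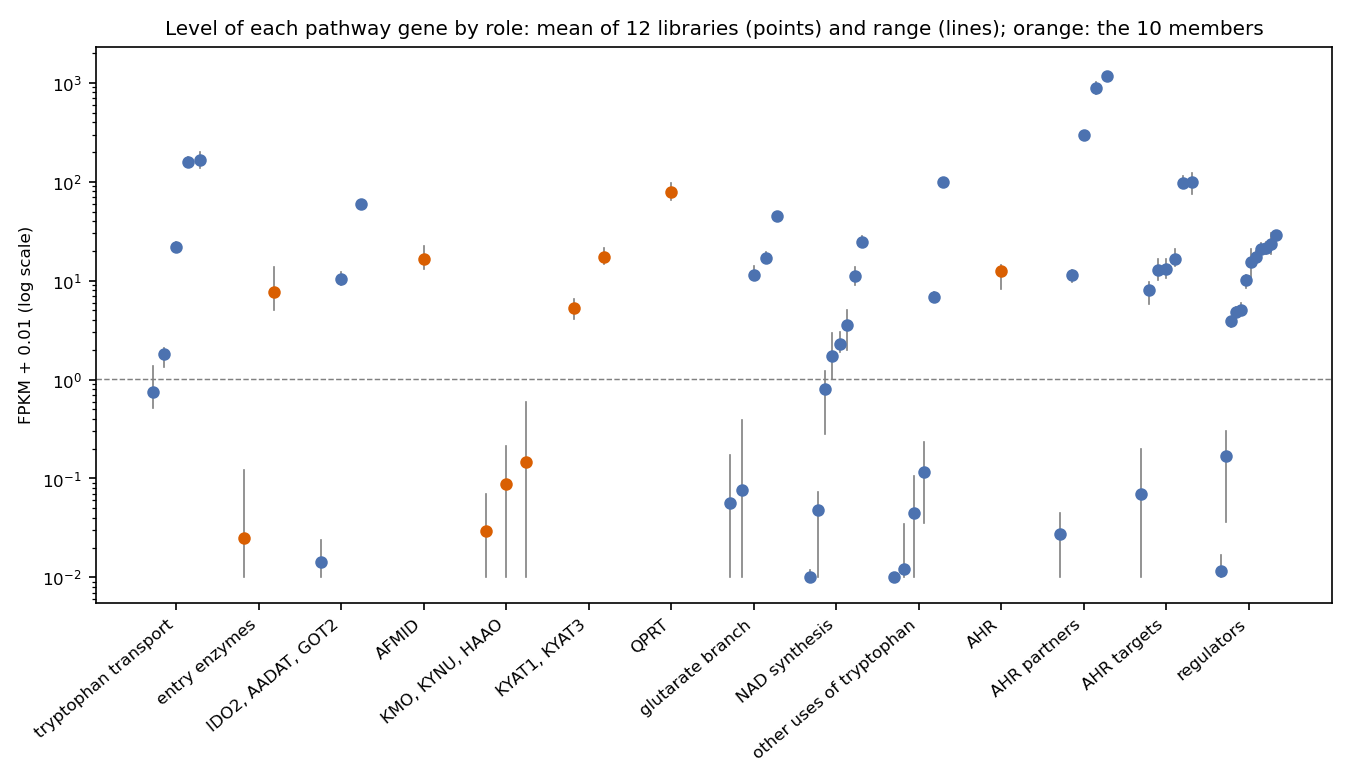
Mean FPKM over the 12 libraries plus 0.01 (vertical log axis) of the 61 pathway genes in the table, by role, with lines from the lowest to the highest library, the 10 members in orange and other genes in blue, and a dashed line at 1 FPKM. TDO2 stands at a mean of 7.59 FPKM above IDO1 and IDO2 near 0, and QPRT at 78.1 FPKM above KMO, KYNU and HAAO, each under 1 FPKM.

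Around the members, a wider list of 52 genes covered tryptophan transport and its other uses, the glutarate branch, NAD synthesis, AHR partners and targets, and regulators of TDO2 and IDO1. The table held 51 of them and 36 could be tested. With GLUP, 0 of 36 passed in WT, in TEAD4KO, over both genotypes or for the interaction (limma), and 4, 3, 5 and 3 had an unadjusted p under 0.05. Between genotypes 2 passed untreated (5.42% of all rows did), 5 with GLUP (5.84%) and 7 over both treatments (20.0%), all higher in libraries labelled TEAD4KO. The untreated count and that over both treatments are near the share of all rows. Under quantile normalization the last count was 6 higher and 3 lower (6 and 1 under median-ratio scaling), and the count with GLUP became 5 higher and 1 lower. The median difference over both treatments was 0.028, beside 0.0080 over all rows.

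Tryptophan supply was represented at high level by SLC7A5 (141 to 179 FPKM) and its heavy chain partner SLC3A2. SLC3A2 was at 149, 158 and 147 FPKM in untreated WT and at 142, 142 and 139 FPKM in WT with GLUP. Under the TEAD4KO label it stood at 188, 201 and 186 FPKM without GLUP and at 182, 196 and 167 FPKM with GLUP. As with QPRT, the genotypes did not overlap, and the share of all rows that separate so was not counted. SLC3A2 rose by 0.35 ± 0.05 over both treatments, or 1.27-fold (SE, limma adjusted p = 0.000249), and passed under all 23 alternatives, with 0.21 under quantile normalization. SLC7A5 did not pass in any comparison, and SLC3A2 was the 1 of 4 tested transporters that did, where 20.0% of all rows passed over both treatments.

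Of the genes for other uses of tryptophan, those of protein synthesis were expressed. WARS1, the cytosolic tryptophanyl-tRNA synthetase, was at 93.4 to 107.9 FPKM, and the mitochondrial WARS2 at 6.14 to 7.63 FPKM. TPH1 and TPH2, which start serotonin synthesis, stayed at 0.095 FPKM or less, DDC was listed at 0 in every library, and the amino acid oxidase IL4I1 did not exceed 0.224 FPKM. In the glutarate branch ACMSD, which diverts the intermediate away from quinolinate, was at 0.163 FPKM or less, while DHTKD1, GCDH and DLST were expressed at 10.2 FPKM or more and none passed.

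Among genes of NAD synthesis, 1 of 5 tested passed over both treatments, the share of all rows being 20.0%. NNMT, which methylates nicotinamide and so removes it from NAD salvage, was low. It was at 1.25, 0.994 and 1.06 FPKM in untreated WT and at 1.60, 1.59 and 1.27 FPKM with GLUP. Values under the TEAD4KO label were 1.58, 1.87 and 1.78 FPKM without GLUP and 2.95, 2.49 and 2.07 FPKM with GLUP. NNMT rose by 0.44 ± 0.08 between genotypes over both treatments (SE, limma adjusted p = 0.00248) and passed in all 22 alternatives that tested it, with 0.66 at a pseudocount of 0.1. With GLUP the genotype difference was 0.49 ± 0.11 (limma adjusted p = 0.0240), a call lost in 7 of 23 alternatives. Over both genotypes the GLUP difference was 0.29 ± 0.08 (limma adjusted p = 0.251), which did not pass. All 3 GLUP libraries lay above all 3 untreated ones in each genotype. How many of all rows do so was not counted, so nothing is read from it.

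AHR targets were examined as readouts of the receptor that kynurenine can bind, and AHR partners for their own levels. CYP1A1, the classic AHR target, was at 8.71, 9.64 and 7.27 FPKM in untreated WT and at 5.86, 6.26 and 6.29 FPKM with GLUP. The labelled TEAD4KO libraries stood at 7.19, 9.55 and 8.85 FPKM without GLUP and at 8.12, 9.34 and 8.84 FPKM with GLUP. The WT GLUP libraries were thus the low ones, below all 9 others. How many of all rows have 1 group below all others was not counted, so nothing is read from it. GLUP in WT gave -0.41 ± 0.11 (SE, limma adjusted p = 0.626), which passed only with array weights (limma adjusted p = 0.0252). Between genotypes with GLUP, CYP1A1 was 0.45 ± 0.11 higher in libraries labelled TEAD4KO (limma adjusted p = 0.0301), a call lost in 6 of 24 alternatives. The interaction was 0.45 ± 0.15 and did not pass (limma adjusted p = 1.00). Over both treatments the genotype difference of 0.22 did not pass (limma adjusted p = 0.0558) but did in 7 of 23 alternatives. Among these were the replicate number as a block (limma adjusted p = 0.0376) and array weights (limma adjusted p = 0.0400).

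CYP1B1, another cytochrome P450 induced by AHR, stood at 97.7, 96.7 and 89.0 FPKM in untreated WT and at 75.4, 77.7 and 88.7 FPKM with GLUP. Under the TEAD4KO label it was at 110, 94.6 and 120 FPKM without GLUP and at 112, 120 and 121 FPKM with GLUP. The widest gap lay between the GLUP groups, which did not overlap. With GLUP the genotype difference was 0.54 ± 0.09, or 1.46-fold (SE, limma adjusted p = 0.00329), and over both treatments 0.37 ± 0.06 (limma adjusted p = 0.00125), both kept in every alternative without a fold limit. Untreated it was 0.19 ± 0.09 (limma adjusted p = 0.224), and the interaction of 0.36 ± 0.12 did not pass (limma adjusted p = 1.00). TIPARP, a poly(ADP-ribose) polymerase family enzyme under AHR control, rose by 0.24 ± 0.06 over both treatments (limma adjusted p = 0.0187), a call lost without WT untreated replicate 3 (0.0566). ALDH3A1, an aldehyde dehydrogenase, rose by 0.23 ± 0.07 (limma adjusted p = 0.0410), a call lost in 13 of 23 alternatives, with 0.10 after the length and GC correction. NQO1 and AHRR, which AHR also induces, did not pass in any comparison.

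Counted together, 3 of the 6 tested AHR targets passed over both treatments, 2 with GLUP and 0 untreated, all higher in libraries labelled TEAD4KO, beside 20.0%, 5.84% and 5.42% of all rows. Of the 4 tested partners, 0 passed in any of the 7 comparisons (limma). ARNT, the DNA-binding partner of AHR, was at 9.79 to 12.7 FPKM. It was the 1 partner with an unadjusted p under 0.05 (limma), between genotypes with GLUP and over both treatments. In both it was lower in libraries labelled TEAD4KO, with a mean of 10.7 FPKM against 12.3 FPKM in WT with GLUP.

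**Figure D4:**
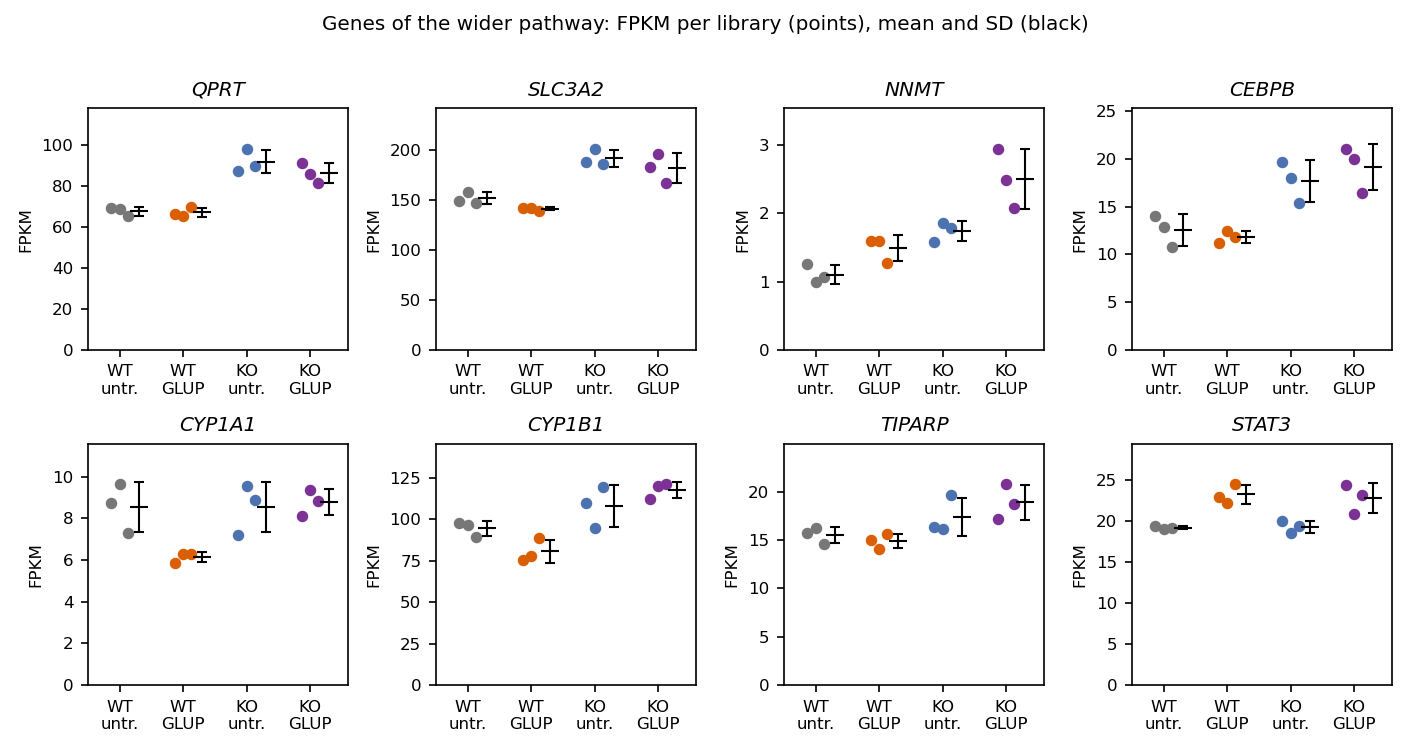
FPKM (vertical axes, each from 0) of QPRT and 7 genes of the wider pathway in each of the 12 libraries, by group (KO: labelled TEAD4KO), with points for libraries and black bars for mean and SD. SLC3A2 and CEBPB were higher in every library labelled TEAD4KO than in every WT library, CYP1A1 was lowest in WT with GLUP at 5.86 to 6.29 FPKM, and STAT3 was at 20.8 FPKM or more in all GLUP libraries and at 20.0 FPKM or less in untreated ones. The pattern of STAT3 was found in 0.410% of all rows tested, and the other patterns were not counted over all rows.

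Among factors that act on TDO2 or IDO1 expression, CEBPB, a leucine zipper transcription factor, showed the widest genotype difference. It was at 14.005, 12.9 and 10.8 FPKM in untreated WT and at 11.2, 12.4 and 11.8 FPKM with GLUP. Libraries labelled TEAD4KO were at 19.7, 18.0 and 15.4 FPKM without GLUP and at 21.1, 20.0 and 16.5 FPKM with GLUP. No library of one genotype reached the other, a pattern whose share of all rows was not counted. CEBPB rose by 0.56 ± 0.08 over both treatments, or 1.47-fold (SE, limma adjusted p = 0.000471), and kept passing in all 23 alternatives, at 0.34 after the length and GC correction. Untreated it rose by 0.46 ± 0.11 (limma adjusted p = 0.0321), a call lost in 10 of 24 alternatives (0.23 and limma adjusted p = 0.169 after the length and GC correction), and with GLUP by 0.65 ± 0.11 (limma adjusted p = 0.00519). IFNGR2, a chain of the interferon gamma receptor, rose by 0.27 ± 0.06 over both treatments (limma adjusted p = 0.00746). The other 8 tested regulators did not pass.

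STAT3, a transcription factor activated by cytokines, is on the same list. It was at 19.4, 19.0 and 19.2 FPKM in untreated WT and at 23.0, 22.3 and 24.6 FPKM with GLUP. Libraries labelled TEAD4KO were at 20.0, 18.5 and 19.4 FPKM without GLUP and at 24.4, 20.8 and 23.2 FPKM with GLUP. All 6 GLUP libraries lay above all 6 untreated ones, as was the case for 46 of all rows tested (0.410%). GLUP over both genotypes gave 0.25 ± 0.05, or 1.19-fold (SE, limma adjusted p = 0.0543), which did not pass but did in 6 of 21 alternatives, with p from 0.0164 to 0.183 over all of them. NR3C1, the glucocorticoid receptor through which TDO2 is induced in liver, was listed at 0.007 FPKM or less. A value so low in a growing line can be a failed estimate, so only the listing is given.

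The rows most like TDO2 were ranked by Pearson's r of log2(FPKM + 1) over the 12 libraries, which share the 4 groups, among 11076 rows with a symbol. The 5 highest were MMP2, a gelatinase of the extracellular matrix (r = 0.93), DDIT4L, a regulator of mTOR signalling (0.92), ELF1, an ETS transcription factor (0.92), RDH10, a retinol dehydrogenase (0.90), and HSPB7, a small heat shock protein (0.90). After group means were taken out, r was 0.92, 0.84, 0.75, 0.43 and 0.62 in the same order. MMP2 was at 10.2 to 10.6 FPKM in untreated WT, 12.6 to 13.7 FPKM in WT with GLUP, 11.1 to 12.2 FPKM in untreated TEAD4KO and 12.4 to 14.6 FPKM in TEAD4KO with GLUP. Like TDO2, it was highest in TEAD4KO GLUP replicate 14. Without that library only 1 of the 5, DDIT4L, stayed among the 5 highest. Of the pathway genes, STAT3 ranked 21 (r = 0.85), NNMT 104 (0.73) and AHR 714 (0.49).

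**Figure D5:**
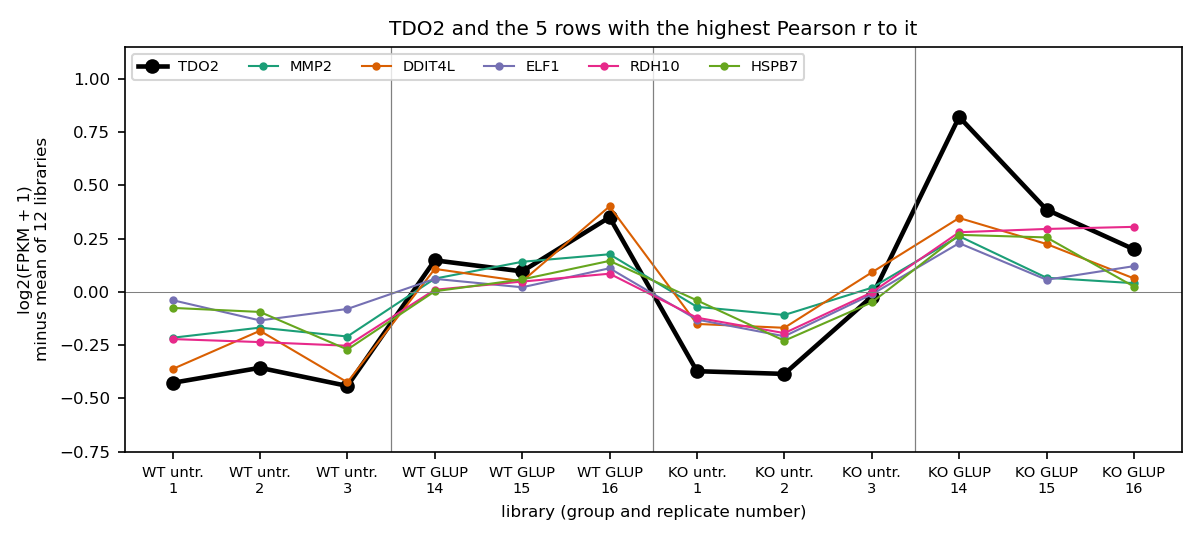
Log2(FPKM + 1) minus its mean over the 12 libraries (vertical axis) for TDO2 (black) and the 5 rows with the highest Pearson r to it, by library (horizontal axis, group and replicate number, KO for labelled TEAD4KO). All 6 lines stand higher in GLUP than in untreated WT libraries, and TDO2 peaks in TEAD4KO GLUP replicate 14 at 13.6 FPKM. The 5 rows were picked for their likeness to TDO2 in these libraries, so nothing is read from the shared rise.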

How the data were processed

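RNA of 12 HGC-27 samples was sequenced after TRIZOL extraction and Illumina library preparation. The authors processed the reads on an online platform and deposited FPKM, with samples in columns and Ensembl genes in rows. The submitters' processing notes name HISAT2, Cufflinks, RSEM and hg19, with versions and roles not given in the sources used here. FPKM scales with the mapped total, so abundant genes shift others, and length or GC bias stays in the values. Totals ranged from 375361 to 423757 FPKM. Low values did not fall on steps of whole reads, so depth is unknown and precision rests on replicate spread.

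Sample titles named the columns, of which 0 pairs were identical. In R 4.3.3, limma 3.58.1 (lmFit and eBayes with trend) fitted one 4-group model to log2(FPKM + 1) of the 11225 rows whose mean reached 1 FPKM, and 7 comparisons were each adjusted by Benjamini-Hochberg over all rows. All tests were two-sided. The fit was tested on simulated data. Names, positions and promoters came from GENCODE 44 lifted to GRCh37.

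The members and gene lists were chosen with earlier results of these data known, and 1 listed gene is not reported here. Named genes are the members, TEAD4, the 5 rows most like TDO2 and listed pathway genes that passed in any comparison or give a role's level. TDO2 got no p. The model had no replicate block, which was run only as an alternative. Between genotypes, deviations from group means correlated at 0.106, 0.152 and 0.336 for numbers 14, 15 and 16. For numbers 1, 2 and 3 they correlated at -0.0569, 0.203 and -0.0149. These ranges overlap and libraries of unlike number were not compared, so whether equal numbers are pairs is not settled. The block treats all equal numbers as pairs.

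Alternatives were a pseudocount of 0.1, no filter, a mean of at least 5 FPKM, median-ratio and quantile scaling, no trend, array weights, a 2-fold limit, splines on length and GC content, a replicate block, a fit of only the groups compared, and leaving out each library. Leaving out TEAD4KO untreated replicate 1 and GLUP replicate 16 together was added after seeing the data.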

Additional observations from a re-analysis of the deposited data

How the results depend on the processing

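Over the alternatives, the GLUP difference of TDO2 was 0.53 to 0.69 in WT and 0.55 to 0.86 in TEAD4KO. Over both genotypes it was 0.58 to 0.75. TDO2 was chosen by its values, and its GLUP and untreated groups did not overlap. Leaving out 1 library could therefore not turn the sign, and nothing is read from the sign being kept. The excess of the TDO2 difference in TEAD4KO over WT ran from -0.054 (without TEAD4KO GLUP replicate 14) to 0.26 when 1 library was left out. AFMID with GLUP over both genotypes ran from -0.12 to 0.058, turning positive without TEAD4KO untreated replicate 1 (0.058) or TEAD4KO GLUP replicate 14 (0.000808).

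No member passed a GLUP comparison in any alternative. With a 2-fold limit as well, 0 members and 0 other pathway genes passed between genotypes in each comparison. Members passing between genotypes with GLUP numbered 2 with array weights, and 1 to 2 when 1 library was left out (2 without TEAD4KO GLUP replicate 16, KYAT3 being the added gene). Without TEAD4KO untreated replicate 1 and TEAD4KO GLUP replicate 16 together, 2 members passed untreated and 2 with GLUP, and other pathway genes numbered 6 untreated, 12 with GLUP and 15 over both treatments.

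Other pathway genes passing untreated between genotypes numbered 1 with no filter, 1 with only the groups compared, 1 with the replicate block together with the length and GC correction, 0 with median-ratio scaling, and 0 (without WT untreated replicate 3) to 4 (without TEAD4KO GLUP replicate 16) when 1 library was left out, with 1 without WT untreated replicate 2 or TEAD4KO untreated replicate 2. With GLUP they numbered 9 with array weights and 3 to 7 when 1 library was left out, the low value being reached without any 1 of the 3 WT GLUP libraries or TEAD4KO GLUP replicates 14 and 15. Over both treatments they numbered 11 with array weights, 11 with the replicate block together with the length and GC correction, and 5 to 11 when 1 library was left out (11 without TEAD4KO untreated replicate 1). For GLUP itself, 2 passed in WT with array weights (CYP1A1 and STAT3). STAT3 was the 1 that passed over both genotypes with a mean of at least 5 FPKM, median-ratio scaling, quantile normalization, array weights or the length and GC correction, and the range was 0 to 1 when 1 library was left out (1 without TEAD4KO GLUP replicate 15). The causes were not tested.

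With the replicate block, 1 member and 3 other genes passed untreated, 1 and 6 with GLUP, 2 and 9 over both treatments, and 0 and 0 for the interaction. TEAD4 was called higher under the TEAD4KO label with GLUP (limma adjusted p = 0.0479), a call lost in 14 of 24 alternatives. Among them was the length and GC correction (0.11, limma adjusted p = 0.273), which also ended the TEAD4 call over both treatments (0.077, limma adjusted p = 0.223). The block took the TEAD4 call with GLUP to a limma adjusted p of 0.0516. It also added CYP1A1 over both treatments, a call gained in 7 of 23 alternatives. The block changed no other call given for a named gene. Of the 5 rows most like TDO2, 3 stayed among the 5 highest with median-ratio scaling, and 1 to 4 when 1 library was left out. Depth is unknown, so the members below 1 FPKM cannot be given a limit of detection.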

Other observations

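NAD can also be made without kynurenine, and the listed genes of NAD synthesis, some of which serve both routes, differed widely in level. NAMPT, the rate-limiting enzyme of salvage from nicotinamide, was at 23.1 to 28.4 FPKM, and NADSYN1, the synthetase of the last step from nicotinate, at 8.99 to 13.9 FPKM. NAPRT, which uses nicotinic acid, was at 2.00 to 4.99 FPKM, and NMNAT1, the nuclear adenylyltransferase, at 1.88 to 3.02 FPKM. NMRK1, a nicotinamide riboside kinase, was at 0.271 to 1.22 FPKM, NMNAT2 stayed at 0.063 FPKM or less, and NMNAT3 was listed at 0 in 11 libraries. None of NAMPT, NADSYN1, NAPRT and NMNAT1 passed in any of the 7 comparisons (limma).

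The chaperones that hold AHR were among the most abundant transcripts of the pathway lists. HSP90AB1 was at 1086 to 1280 FPKM, HSP90AA1 at 763 to 1028 FPKM and the p23 co-chaperone PTGES3 at 267 to 323 FPKM. ARNT2, the neuronal partner of AHR, did not exceed 0.035 FPKM, and the AHR target CYP1A2, a liver enzyme, did not exceed 0.190 FPKM.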
